A study of Drosophila melanogaster with 3 samples.

Results

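Binding of Sp1 inside introns, away from any promoter, was described from ChIP-seq peak lists of Drosophila melanogaster larvae. A peak was taken as intronic when its summit lay more than 500 bp from every protein-coding transcription start site (TSS), inside the body of a protein-coding gene and in no annotated exon. In the authors' optimal set of peaks, 2838 met this rule, or 35.5% (Wilson 95% interval 34.4 to 36.5%, which covers the counting of peaks only). The rest of the set was 3559 promoter peaks (44.5%), 1330 intergenic peaks (16.6%) and 274 exonic peaks (3.42%). There is 1 group of 3 biological replicates, each a pool of whole male and female larvae in the wandering phase of the third instar, from a line with a stable transgene for Sp1 tagged at its C terminus with green fluorescent protein (GFP). Crosslinked DNA was sheared by sonication and recovered with an antibody to GFP, and no second genotype, stage or treatment was compared. The age of the animals is unknown per the labels, and all cell types of the larva contribute, so a site bound in few cells and a site bound weakly in many cannot be told apart.

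Each replicate list and the pooled list hold 30000 peaks, and the optimal set is the strongest part of the pooled list by the authors' signal value. Heights of peak classes are therefore compared within 1 list at a time. Each replicate was represented by as many of its own strongest peaks as the optimal set holds, called its strongest peaks below. Where the signals of 1 peak are set side by side, their order and spread across replicates also hold any difference in scale between lists. The lists hold no read counts, so the depth of each library is unknown. Replicates came from separate biosamples of 1 line. With 3 replicates the exact two-sided sign-flip permutation test cannot give a p below 0.25, so no difference below could pass 0.05, and the values of all 3 replicates are given instead.

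Sp1 belongs to the Sp/KLF family of zinc finger transcription factors, which recognise G-rich DNA such as the GC box and the CACCC box. In the fly, Sp1 acts with its neighbour and relative btd in the growth of legs. Fly introns, above all long first introns, are known to hold many enhancers, and the wandering larva is the stage at which a pulse of ecdysone starts metamorphosis.

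The sequences around 8 intronic summits are shown first, because the later results on words and on strongest peaks refer to them. Each is 100 bp either side of the summit on the plus strand of Release 6 of the reference genome (dm6), read from the reference. The CG11050 window runs past both ends of its 140 bp intron. Capitals mark a match, on either strand, to any of 23 short words searched, which are the binding sites or core sites listed further down. CG11050, CG32772, Trl, Lk6 and Mitf hold the strongest intronic peak of 2L, X, 3L, 3R and 4, Sp1 is the gene of the factor itself, and LPCAT and CG9663 are windows that hold both GA repeats and a GC box.
CG11050 summit, chr2L:6612611-6612811: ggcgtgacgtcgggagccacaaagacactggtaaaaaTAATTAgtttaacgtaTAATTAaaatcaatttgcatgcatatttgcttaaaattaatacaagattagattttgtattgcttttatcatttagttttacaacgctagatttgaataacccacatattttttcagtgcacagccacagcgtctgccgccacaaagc
CG32772 summit, chrX:4910278-4910478: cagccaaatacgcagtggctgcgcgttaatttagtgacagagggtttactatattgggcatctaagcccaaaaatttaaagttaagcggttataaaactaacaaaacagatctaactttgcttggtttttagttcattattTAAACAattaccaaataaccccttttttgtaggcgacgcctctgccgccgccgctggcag
Trl summit, chr3L:14759412-14759612: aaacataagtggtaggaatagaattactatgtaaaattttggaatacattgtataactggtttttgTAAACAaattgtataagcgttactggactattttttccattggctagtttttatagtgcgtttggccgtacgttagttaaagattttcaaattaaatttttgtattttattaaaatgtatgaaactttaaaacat
Lk6 summit, chr3R:11760945-11761145: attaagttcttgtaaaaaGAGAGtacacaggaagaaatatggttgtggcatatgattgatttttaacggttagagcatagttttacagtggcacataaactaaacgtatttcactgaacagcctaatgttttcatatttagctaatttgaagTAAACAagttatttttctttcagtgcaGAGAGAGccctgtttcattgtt
Mitf summit, chr4:1199331-1199531: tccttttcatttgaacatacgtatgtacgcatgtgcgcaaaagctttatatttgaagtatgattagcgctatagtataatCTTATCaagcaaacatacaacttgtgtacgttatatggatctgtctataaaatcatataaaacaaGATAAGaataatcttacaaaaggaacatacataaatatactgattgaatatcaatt
Sp1 summit, chrX:9738595-9738795: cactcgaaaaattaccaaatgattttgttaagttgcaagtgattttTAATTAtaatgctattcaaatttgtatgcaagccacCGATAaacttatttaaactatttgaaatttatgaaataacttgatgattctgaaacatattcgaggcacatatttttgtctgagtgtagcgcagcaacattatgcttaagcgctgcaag
LPCAT summit, chrX:9579176-9579376: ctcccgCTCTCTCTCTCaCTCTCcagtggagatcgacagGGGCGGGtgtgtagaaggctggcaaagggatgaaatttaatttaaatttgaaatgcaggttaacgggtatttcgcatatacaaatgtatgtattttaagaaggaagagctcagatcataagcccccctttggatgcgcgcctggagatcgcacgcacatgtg
CG9663 summit, chr2L:3302082-3302282: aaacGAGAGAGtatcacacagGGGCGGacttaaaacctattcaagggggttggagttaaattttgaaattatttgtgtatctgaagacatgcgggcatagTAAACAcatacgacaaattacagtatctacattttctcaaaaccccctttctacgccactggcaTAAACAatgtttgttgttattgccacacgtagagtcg
The 2 windows with the highest signal, in CG11050 and CG32772, held no G-rich word: CG11050 held the homeodomain word TAATTA at 2 places and CG32772 the forkhead word TAAACA at 1. The Lk6 window held GAGAG at 3 places and the LPCAT window at 5, with overlapping matches counted. LPCAT also held the GC box GGGCGG. The Mitf window held the GATA word GATAAG at 2 places. The Sp1 window held CGATA and TAATTA and none of the words of Sp proteins.

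Introns made up much of the genome that could hold such a peak. Sequence meeting the same rule, called eligible intronic sequence below, covered 52.1 Mb or 38.9% of the arms, and held 54.5 optimal peaks per Mb. Promoter sequence held 232 peaks per Mb, intergenic sequence 34.5 and exonic sequence 9.83. Of the strongest 1000 peaks 34.1% were intronic, and of the 2001 weakest 37.2%.

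Replicates differed in how much of their list was intronic. Of the strongest peaks, 33.5% were intronic in replicate 1, 32.0% in replicate 2 and 40.4% in replicate 3 (mean 35.3 ± 4.47%, SD, n = 3), against 47.0%, 45.8% and 49.2% of the weaker peaks of the same lists. Replicate 3 had the most intronic and intergenic peaks and the fewest promoter peaks, with 36.5% at promoters against 48.1% and 49.9% in replicates 1 and 2. The difference between strongest and weaker peaks was -12.0 ± 2.79 percentage points, lower in 3 of 3 replicates (exact sign-flip permutation p = 0.25). Weaker peaks here are the rest of a list with a summit over 500 bp from all stronger ones, and 96.0 to 99.5% of the weaker intronic peaks of the replicates have the caller's default width with the summit in the middle, against 22.3 to 34.2% of intronic peaks among the strongest. Distances and first introns are therefore also compared with the few weaker peaks that have a summit of their own.

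**Figure D1:**
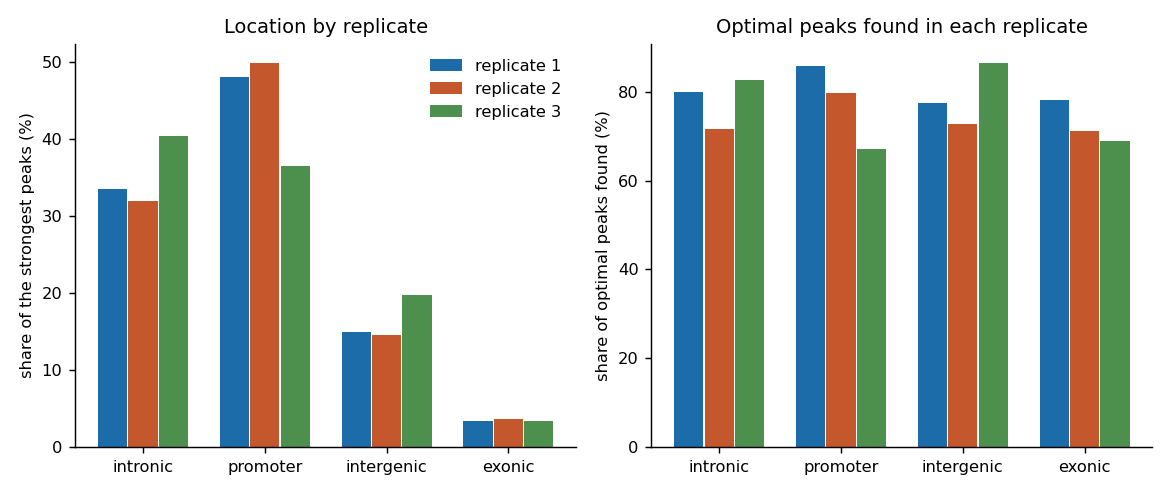
Left, share of each replicate's strongest peaks by location. Right, share of the optimal peaks of each location with a summit within 100 bp among the strongest of each replicate; bars are single replicates. Replicate 3 holds the largest intronic share on the left (40.4%) and, on the right, more of the intronic peaks (82.8%) than of the promoter peaks (67.2%).

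The median height of intronic peaks among the strongest peaks was nearly that of promoter peaks in replicates 1 and 2 and below it in replicate 3. Their median signal in the pooled list was 407, with quartiles of 289 and 725, against 420.1 for promoter peaks and 424 for intergenic peaks. In the replicates the median intronic signal was 148, 153 and 150.1, against 148, 153 and 167 at promoters and 158, 159.7 and 148 between genes. The ratio of intronic to promoter medians averaged 0.966 ± 0.0586 (SD, n = 3; exact sign-flip permutation p = 0.75 on the log2 scale), and the ratio to intergenic medians 0.969 ± 0.0397 (p = 0.5, same exact test). Only replicate 3 had a ratio to promoters away from 1, at 0.898, and without it the mean log2 ratio was 7.13e-05 in place of -0.05. Both classes were cut at the same signal in each list, so near-equal medians above that cut cannot show equal height. Over all 30000 peaks of each replicate list, itself a cut at a set number, the intronic median was lower than the promoter median. The mean log2 ratio was then -0.89 (exact sign-flip permutation p = 0.25). A larger part of the weaker peaks than of the strongest was intronic in each replicate. This median therefore depends on the share of weak peaks in each class, and cannot show lower height either.

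A summit within 100 bp was found among the strongest peaks of all 3 replicates for 1501 intronic peaks, or 52.9% (Wilson 51.1 to 54.7%), against 49.9% of promoter and 57.1% of intergenic peaks. Another 846 were found in 2 replicates, 460 in 1 and 31 in none. With all 30000 peaks of each replicate, 2394 were found in all 3. Replicate 1 held 80.1% of the intronic peaks, replicate 2 held 71.7% and replicate 3 held 82.8%, against 85.9%, 79.7% and 67.2% of the promoter peaks. The rank correlation of signal between replicates, over intronic peaks with a summit within 100 bp anywhere in both full lists, was 0.821 for replicates 1 and 2, 0.701 for 1 and 3 and 0.642 for 2 and 3. They are a description over 2470 to 2564 peaks per pair, which share the same libraries. By pooled height, 96.3% of the 710 strongest intronic peaks were found in all 3 replicates and 3.81% of the 709 weakest. The optimal set and its pooled heights come from these same 3 replicates, and a find needs a place among a replicate's strongest peaks. The shares found therefore depend on how the peaks were chosen and are no independent measure of replication.

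Intron numbers below are those of the longest transcript around the summit. The strongest intronic peak lay in the 140 bp second intron of CG11050 (chr2L:6612316-6613105, summit 6612711), 1024 bp from the nearest TSS. Its pooled signal was 11092, rank 3 among all optimal peaks, and its signal was 4576, 3321 and 3253 in replicates 1, 2 and 3. The second lay in CG32772 (chrX:4909578-4910911, summit 4910378), with 4147, 3062 and 3061. In both, replicate 1 stood above the other 2, which were nearly equal.

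Next came a peak in the 49060 bp first intron of ush (chr2L:479443-482144, summit 481071), which encodes a cofactor of GATA factors, with signals of 3509, 3523 and 3120.3. Its nearest TSS is that of cbt, 1383 bp away, which lies within the same ush intron. The interval of the peak covers that TSS, although its summit does not lie near it by the rule. The peak in Lk6 (chr3R:11760546-11761564, summit 11761045), a kinase of the translation factor eIF4E, had 2961, 2590.0 and 2587 and lay in the first intron, 966 bp from a Lk6 TSS. These 4 peaks had the highest mean signals of all intronic peaks, and each replicate ranked all 4 among its 16 strongest peaks.

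The others of the 20 strongest are grouped by gene function for reading only, since the share of such genes among all host genes was not counted. Several lay in genes of chromatin proteins. The peak in Trl, which encodes the GAGA factor, had 2129, 1679.9 and 1689, and lay in a window of 25.4% G+C with no GAGAG. The peak in osa, a subunit of the Brahma remodelling complex, had 2108, 1785 and 1546 and lay 13515 bp from any protein-coding TSS, but 155 bp from an annotated long non-coding RNA. The peak in simj, a subunit of the NuRD complex, had 1797, 1764 and 1369.5. HmgZ, a high mobility group protein, held a peak of 1944, 1606 and 2149.8, which also lay inside HmgD. Outside this group, chif, the activating partner of the replication kinase Cdc7, held a peak of 2277, 1740.5 and 1680.2, which also lay inside Hyls1.

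Others lay in genes of signalling, ecdysone response and metabolism. The peak in Eip75B, an ecdysone-induced nuclear receptor, had 1612, 1291 and 2206, with replicate 3 highest. The peak in Eip78C, a second nuclear receptor of this kind, had 1812, 1669 and 1872 and varied least of the 20 (coefficient of variation 5.85%). Raf, the kinase below Ras, held a peak of 2233, 1511 and 1738 in its second intron, 5230 bp from the TSS. Zw, the glucose-6-phosphate dehydrogenase gene, held one of 2063, 1733 and 1272.

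The peak in CHES-1-like, a forkhead factor gene, varied most, with 2148, 1892 and 1065 (33.3%). The other 6, in CG9663, Tlk, CG4496, LPCAT, CG3726 and CG32486, had replicate signals between 1194 and 2846. All 20 were found among the strongest peaks of all 3 replicates, and 16 lay in a first intron of at least 1 transcript. Replicate 1 had the highest signal at 14 of them, replicate 2 at 1 and replicate 3 at 5. No scaling between the lists is stated, so this order and the coefficients of variation cannot be read as differences in binding.

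**Figure D2:**
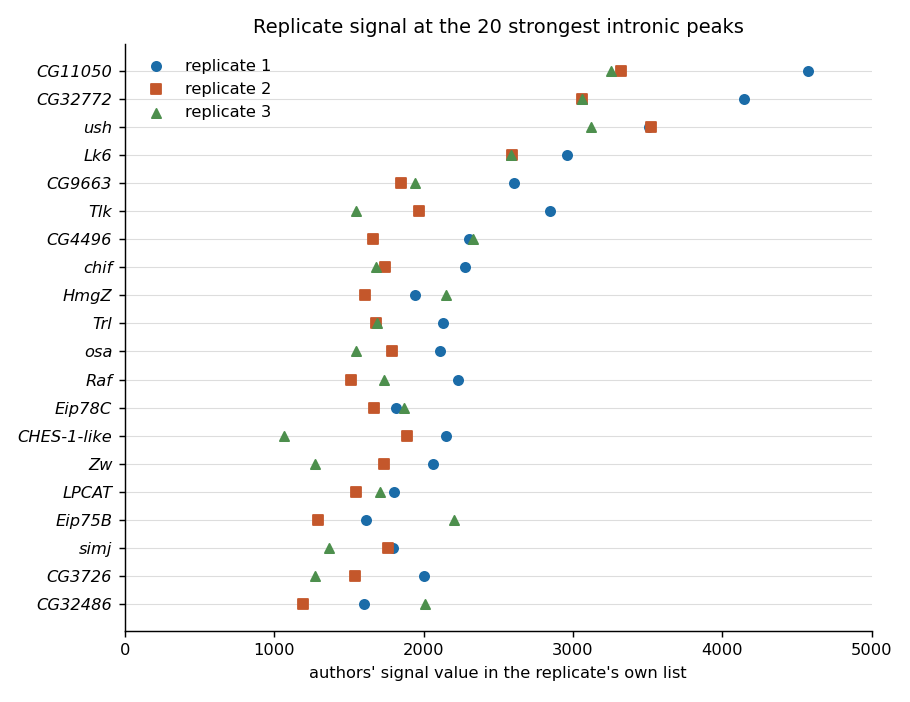
Signal of the 20 strongest intronic peaks, ordered from the highest pooled signal at the top, in each replicate's own list (points, 1 per replicate). CG11050 spans 3253 to 4576 and CG32486, at the bottom, 1194 to 2012. Replicate 1 is highest at 14 of the 20 peaks, and replicate 3 at 5, among them Eip75B and CG32486. No scaling between the lists is stated.

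Within introns, the peaks lay nearer to promoters than the sequence open to them. The median distance from the nearest protein-coding TSS was 3265 bp for intronic peaks, with quartiles of 1372 and 7538 bp, against 4858 bp for weaker intronic peaks of the pooled list and 6484 bp for eligible intronic sequence. In the replicates the median was 3146, 3045 and 3493 bp, against 4437, 4232 and 5030.0 bp for weaker intronic peaks, nearer in 3 of 3 (mean log2 ratio -0.50 ± 0.0257, SD, n = 3; exact sign-flip permutation p = 0.25). With weaker peaks limited to those with a summit of their own, the mean log2 ratio was -0.32 (exact permutation p = 0.25). Of the intronic peaks, 16.4% lay between 500 and 1000 bp from a TSS, against 9.57% of weaker peaks and 7.52% of eligible sequence, while 17.6% lay over 10 kb away, against 27.6% and 37.1%.

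First introns held most of them. In at least 1 transcript, 1923 summits lay in the first intron, or 67.8% (Wilson 66.0 to 69.5%), against 59.2% of weaker intronic peaks and 42.8% of eligible intronic sequence. The share was 68.3%, 68.8% and 67.1% in the replicates, against 59.8%, 60.4% and 58.5% of weaker intronic peaks. The difference was 8.49 ± 0.124 percentage points, higher in 3 of 3 (exact sign-flip permutation p = 0.25). It was 2.31 points (exact permutation p = 0.5) against weaker peaks with a summit of their own, a far smaller set. Counting only the longest transcript that spans the summit, 1383 summits (48.7%) lay in its first intron.

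The TSS nearest to a summit belonged to a gene around it for 2236 peaks (78.8%), and 1696 (59.8%) lay downstream of such a TSS. Of all intronic summits, 1925 (67.8%) lay nearer to the start than to the end of the host gene. As for other annotations, 44 (1.55%) lay within 500 bp of the TSS of a non-coding gene, and 5 in an annotated transposable element. The counts in this paragraph so far were not set beside eligible intronic sequence or weaker peaks. They describe the members and cannot show a preference. The interval of 234 peaks (8.25%) reached within 500 bp of a TSS although the summit did not. Among them were strong peaks named above, in CG32772, ush, Lk6, CG9663, CG4496, chif, HmgZ and LPCAT. The strongest, in CG11050, was not among them. The share of 8.25% is that of all intronic peaks and does not describe the strongest ones. At the limit of the rule, 102 summits at 501 to 600 bp had a median pooled signal of 484, and 105 summits in introns at 401 to 500 bp, which count as promoter peaks, had one of 413. The nearest member lay 501 bp from a TSS, in CG1146, and the farthest such promoter summit 500 bp away, in pyd. At the limit of the optimal set, the weakest intronic peak, in hebe, had a pooled signal of 220.4, as had the strongest intronic peak left out, in Hr38.

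**Figure D3:**
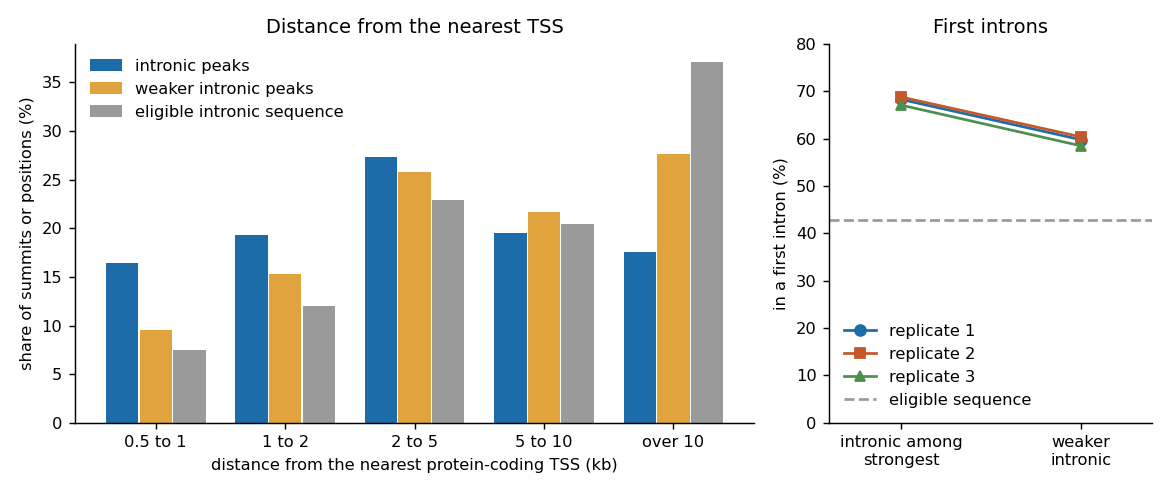
Left, share of intronic peaks, weaker intronic peaks of the pooled list and eligible intronic sequence (positions every 500 bp) by distance from the nearest protein-coding TSS in kb. Right, share of summits in a first intron among intronic peaks of each replicate's strongest peaks and among its weaker intronic peaks, 1 line per replicate; the dashed line is eligible sequence. Intronic peaks are the highest bar below 5 kb and the lowest over 10 kb, and all 3 lines fall by 8.36 to 8.60 points.

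Peaks often came in groups. Another optimal summit lay within 2 kb of 1568 intronic summits, or 55.3%. In the replicates the share was 55.6%, 59.9% and 53.9% (mean 56.5 ± 3.10%, SD, n = 3), against a mean of 48.2 ± 4.05% for promoter summits and 53.2 ± 3.24% for intergenic ones. It was higher than at promoters by 8.25 ± 1.01 points, in 3 of 3 replicates (exact sign-flip permutation p = 0.25). Of the intronic peaks, 293 share their interval with another line of the optimal set, and with 1 line per interval 50.8% had such a neighbour.

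Runs of intronic summits, each within 2 kb of the next, reached 8 in Tet, over 8220 bp (chr3L:2830203-2838423), with pooled signals of 264 to 3115 and 5 of the 8 found in all 3 replicates. Mnt held a run of 7 over 5432 bp, 6 of them in all replicates, and Raf one of 6 over 6378 bp, all 6 in all replicates and all at 537 or higher. Smr, a nuclear receptor corepressor gene, and CG14434 also held runs of 6, with 3 and 2 of them in all replicates. Most summits, 1688 of 2838, had no intronic summit within 2 kb.

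Of 9174 protein-coding genes with any eligible intronic sequence, 1184 held at least 1 intronic peak, or 12.9%. This is the background for the gene lists below. There were 2980 pairs of a summit and a gene around it, since 136 summits lay in more than 1 gene. Most host genes held few: 594 held 1 summit and 241 held 2, while 38 genes with 10 or more held 518 summits. Host genes were long, with a median of 10.7 kb of eligible intron against 0.345 kb in the other eligible genes, so counts are also given per 100 kb of eligible intron, where all eligible genes together had 5.49.

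Tet, the fly member of the family of methylcytosine dioxygenases, held the most, with 27 in the optimal set and 26, 23 and 26 among the strongest peaks of replicates 1, 2 and 3. Its density was 34.3 per 100 kb. Eip75B held 25, with 24, 27 and 17 in the replicates, fewest in replicate 3. In sbb, a corepressor gene, the counts were 25 in the optimal set and 25, 28 and 23 in the replicates, at 44.6 per 100 kb. The adhesion gene kirre also held 25, with 21, 21 and 27, but over 334 kb of eligible intron, so its density of 7.49 was close to that of all genes and it had no promoter peak.

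CG1677 held 20, with 18, 16 and 19 in the replicates. In shn, a zinc finger effector of the Dpp pathway, 17 summits were found, with 15, 20 and 17, at 39.6 per 100 kb. Mnt, the repressor that shares its partner Max with Myc, also held 17, with 18, 15 and 17, in only 23.4 kb, which gives 72.5 per 100 kb, the highest of these 10 genes. All 17 had another optimal summit within 2 kb. Eip74EF, an ecdysone-induced Ets factor gene, held 16 (12, 17 and 13), tara 15 (17, 18 and 15) and ush 14 (11, 10 and 12). Of these 10 genes, kirre alone lacked a promoter peak.

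Intronic and promoter peaks often fell in the same genes. A promoter peak was present in 762 of the 1184 host genes (64.4%) and in 2276 of the 7990 other eligible genes (28.5%). Host genes are longer, so genes were split by eligible intron length. Among genes with over 3.11 kb, 68.4%, 67.6% and 54.8% of host genes had a promoter peak in replicates 1, 2 and 3, against 26.5%, 26.7% and 24.0% of other genes (means 63.6 ± 7.65% and 25.7 ± 1.53%, SD, n = 3; higher in 3 of 3, exact sign-flip permutation p = 0.25). Among those with 0.469 to 3.11 kb the means were 56.1 ± 6.40% and 33.4 ± 4.81%, again higher in 3 of 3. The split by length was added after the values were seen.

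Cell cycle and Myc genes were the densest of 22 gene lists, which were chosen with earlier results of these data known and are described without a test. In that list, 7 of 17 eligible genes (41.2%) held 36 summits, or 37.4 per 100 kb, with 38.5, 34.3 and 36.4 in the replicates. Mnt and E2f1, the cell cycle transcription factor with 12 summits, carried 29 of the 36. The highest peak of E2f1 had signals of 437, 559 and 520.2, and that of CycE, a cyclin of S phase entry with 2 summits, 729, 719 and 802. Cdk1 and Cdk2 held none, with 0.175 and 0.227 kb of eligible intron. In the insulin and TOR list, 5 of 16 genes held 16 summits (19.6 per 100 kb, and 18.4 in each replicate). InR, the insulin receptor, held 8, and Lk6 and foxo 3 each, with foxo, the transcription factor that insulin signalling restrains, at 305, 397 and 264. Pi3K21B and Pi3K92E held none.

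The lists of developmental signalling pathways lay between 10.1 and 19.9 per 100 kb. In the Hedgehog and Dpp list, 12 of 25 genes held 62 summits, or 19.9 per 100 kb (18.0, 18.0 and 20.8 in the replicates). The highest peak of shn had 1272, 1272 and 969, and that of tkv, a Dpp receptor with 9 summits, 776, 806 and 796, which differed little. The glypican gene dlp also held 9, and Med and Actbeta none. In the EGFR list, 13 of 20 genes (65.0%) held 44 summits, 16.0 per 100 kb. The receptor gene Egfr held 6, its highest at 531, 524 and 512, while the opposed Ets factor genes aop and pnt held 8 each, at 606, 618 and 519 and at 361, 195 and 303. Ras85D and PTP-ER, with little intron, held none.

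In the JAK/STAT and JNK list, 9 of 17 genes held 34 summits (17.2 per 100 kb), 10 of them in the phosphatase gene Ptp61F, 6 in the feedback inhibitor gene Socs36E and 5 in the kinase gene msn. Of the Socs36E summits, the highest was found in replicates 2 and 3 only, at 196 and 259. In the Hippo list, 8 of 15 genes held 27 summits (14.5), with 5 each in Tgi, ds and kibra. The 48.4 kb of eligible intron of app held none. In the Wnt list, 11 of 21 genes held 46 (12.2). The receptor genes fz and arr held 11 and 7, and the feedback gene nkd 7, its highest at 765, 849 and 703. In the Notch list, 7 of 15 genes held 25 (10.1), of which mam, a coactivator gene, held 11, kuz 3 and numb 3.

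The hormone and chromatin lists lay at similar densities. In the ecdysone response list, 15 of 23 genes (65.2%) held 103 summits, or 14.8 per 100 kb, with 13.3, 15.9 and 13.3 in the replicates. EcR, the ecdysone receptor, held 12, its highest at 380.0, 434 and 273, and the highest of Eip74EF had 836, 931 and 606, both lowest in replicate 3. Eip93F, with 51.6 kb of eligible intron, held none. In the Polycomb and trithorax list, 9 of 31 genes (29.0%) held 33 summits (15.1). The trithorax gene trx held 5 in 9.36 kb, its highest at 1249, 1221 and 881, osa 4 and jing 9. The BTB list, which includes br, psq and mamo, had 11 of 13 genes as hosts (84.6%) at 9.25 per 100 kb, with 14 summits in psq. Neither bab2 nor rib held one.

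In the GATA list, 14 of 16 summits lay in ush, grn and GATAd held 1 each, and pnr and GATAe none. In the neural fate list, 5 of 11 genes held 26 (15.4), with 10 in the growth regulator gene brat, 7 in grh and 6 in Syp. Density was nearer to that of all genes in appendage patterning, the process Sp1 is best known for, where 16 of 41 genes (39.0%) held 49 summits, or 6.84 per 100 kb, with 6.70, 5.73 and 9.08 in the replicates. The homeodomain gene hth held 11 of them, over 119.5 kb. The leg joint gene bowl held 6 in 7.32 kb, its highest at 890.0, 816 and 723, bi held 6, and B-H1 and B-H2 none. In the Hox list 3 of 8 genes held 12 (4.39), 10 of them in Antp, whose highest had 775, 793 and 526. Abd-B and Ubx held 1 each, and Scr and Dfd none.

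Ion channel and transmitter receptor genes held few summits for their length. Of 30 such genes, 3 held 5 summits in 1034 kb of eligible intron, or 0.484 per 100 kb, with 0.387, 0.290 and 0.580 in the replicates. KCNQ held 2, one of them with 863, 529 and 743, nAChRalpha6 2 and nAChRalpha5 1. Axon guidance and adhesion genes were hosts in 20 of 35 cases (57.1%) yet had 4.43 per 100 kb, with kirre, Ten-a (11) and Sema1a (8) first. Muscle structure genes had 4.61, with 3 summits each in Zasp52, Mef2 and Tm1. The CPR cuticle genes held 1, in Cpr62Ba. The ribosomal protein genes, cytoplasmic and mitochondrial, held none in 13.4 and 12.4 kb of eligible intron, nor did the chemoreceptor genes in 166 kb. Replicate 3 alone had a summit in a mitochondrial ribosomal protein gene.

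**Figure D4:**
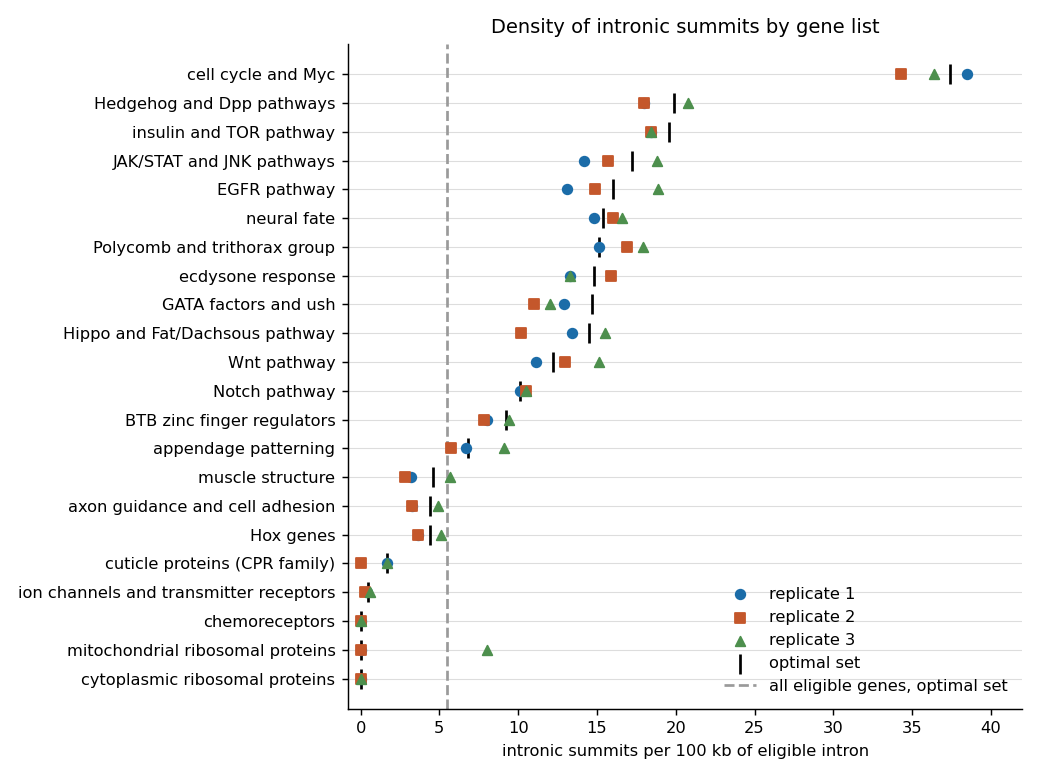
Intronic summits per 100 kb of eligible intron for each of the 22 gene lists, in the strongest peaks of each replicate (points) and in the optimal set (black ticks). The dashed line is 5.49, for all eligible genes. Cell cycle and Myc genes lie at 34.3 to 38.5 in the replicates and ion channel genes at 0.290 to 0.580.

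By chromosome arm, the X held 668 intronic peaks, or 69.5 per Mb of eligible intron, with 66.7, 55.7 and 76.1 in the replicates. In replicate 2 it stood little above 2R, with 50.7 on 2L, 54.6 on 2R and 51.5 on 3L. Densities on 2L, 2R and 3L in the optimal set were 55.4, 54.4 and 54.5, and that of 3R was 45.6. Leaving out genes with over 200 kb of eligible intron gave 59.3 on 2R, 61.1 on 3L, 56.5 on 3R and 69.9 on X, and left 2L at 55.4. Chromosome 4, with 0.560 Mb, held 2, in Mitf and Asator. The Mitf peak had signals of 178 and 215 in replicates 1 and 2 and was not found in replicate 3, and the Asator peak had 124 and 113 in the same 2.

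Sp1 itself held 3 intronic peaks, all in the second intron of its longest transcript, which is a first intron in another, with summits 9738695, 9742267 and 9747662 on the X. Their signals were 137, 91.1 and 245, then 131, 162 and 163, then 152, 139 and 176, and they ranked 3490, 3521 and 3559 in the optimal set. All 3 were found in all replicates, and the gene had no promoter peak. Within 20 kb of the gene the pooled list held 54.0 peaks per 100 kb, against 22.4 over all arms. The labels call the line transgenic without saying whether it carries an added copy of the locus, and the part of such a copy in these peaks was not tested.

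Intronic summits lay in A+T-rich DNA. G+C content within 100 bp was 36.6%, 37.5% and 34.1% in the replicates, against 41.7%, 41.6% and 40.1% at weaker intronic summits, a difference of -5.06 ± 0.920 percentage points, lower in 3 of 3 (SD, n = 3; exact sign-flip permutation p = 0.25). Positions every 500 bp along eligible introns had 40.2%. It was lower than at promoters, with 39.2%, 40.0% and 36.1%, and higher than between genes, with 35.4%, 36.1% and 33.3%, in 3 of 3 replicates each. In 4 groups of 709 or 710 intronic peaks from the strongest to the weakest, G+C was 32.9%, 35.4%, 36.3% and 37.7%. Word shares are given beside this, since G-rich words are less frequent in such DNA.

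The words of Sp and KLF proteins were less frequent at intronic summits than at weaker intronic ones in 3 of 3 replicates. The GC box GGGCGG was within 100 bp of 3.59% of intronic summits, against 7.55% of weaker ones, 4.66% of promoter summits, 4.59% of intergenic summits and 6.25% of positions along introns. In the replicates it was 4.40%, 5.08% and 2.97%, against 7.40%, 7.25% and 6.69% at weaker intronic summits. The CACCC box CCACCC was near 5.36%, against 10.3% of weaker ones, and the wider G-rich word GGGNGGG near 6.06%, against 10.9%. The last was lower at promoters, with 3.88%, and intronic exceeded promoter summits in 3 of 3 replicates, by 2.47 ± 1.13 points (exact sign-flip permutation p = 0.25). With weaker summits weighted to the same G+C, the differences from weaker summits were 0.0843 points for GGGCGG, 0.438 for GGGNGGG and -0.579 for CCACCC. Without that weighting they were -2.97, -3.95 and -4.23 points against all weaker summits, and -2.56, -2.21 and -6.54 points against those with a summit of their own. Of the 710 strongest 1.55% had GGGCGG, and of the 709 weakest 6.06%.

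In the optimal set, the forkhead word TAAACA (24.8% of intronic summits), GAGAG, the site of GAGA factor and CLAMP (24.5%), and GCCAT (23.8%) were the commonest words. Positions along introns had 19.6%, 21.4% and 35.4%, so a high share of such short words is common in introns. In the replicates GAGAG was near 26.9%, 27.6% and 22.2% of intronic summits, against 25.0%, 24.7% and 23.4% of weaker summits. At promoter summits GAGAG was near 26.4%, 28.2% and 22.4%, so replicate 3 was lowest in each. It exceeded intergenic summits by 4.82 ± 1.92 points, in 3 of 3 replicates (exact sign-flip permutation p = 0.25). With equal G+C it exceeded weaker summits by 5.72 points. Of intronic summits with GAGAG within 250 bp, 19.5% had it within 50 bp, against 25.6% at promoters. Matches to GAGAG dipped at the intronic summit itself, with 1.87 and 1.75 per kb in the 50 bp on either side. At 100 to 150 bp there were 3.83 and 3.61 per kb. The dip was not particular to GAGAG. The CA repeat CACACAC had 0.803 and 0.669 per kb at the summit, against 1.52 and 1.43 at 100 to 150 bp, and GGGNGGG and CCACCC were lower there too. TAATTA rose instead, with 1.01 and 1.07 against 0.726 and 0.662. Neither GAGAG nor CACACAC, and neither the G-rich nor the CACCC word, was near 1851 intronic summits (65.2%), against 63.5% of promoter summits.

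Words of promoter factors were less frequent at intronic than at promoter summits. TATCGATA, the site of DREF, was near 0.298%, 0.234% and 0.402% of intronic summits, against 5.98%, 5.74% and 5.71% of promoter summits, a difference of -5.50 ± 0.187 points (exact sign-flip permutation p = 0.25). GGTCACAC, the motif of M1BP, was near 0.410%, 0.313% and 0.526%, against 5.33%, 4.63% and 4.69%. Both were rare away from promoters in general. In the pooled list TATCGATA was near 0.317% of intronic, 0.289% of weaker intronic and 0.0752% of intergenic summits, and GGTCACAC near 0.458%, 0.340% and 0.376%. Positions along introns had 0.437% and 0.324%. CGATA, shared by DREF and BEAF-32, was near 19.2% of intronic and 35.4% of promoter summits of the optimal set. The E box CAGCTG was lower too, with 5.85% against 11.1%. All 4 were lower in 3 of 3 replicates.

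The AP-1 site TGANTCA was near 5.44%, 5.94% and 5.88% of intronic summits, against 3.82%, 3.93% and 3.56% of promoter summits, and the nuclear receptor word AGGTCA near 4.14%, 3.75% and 4.49%, against 2.78%, 2.66% and 3.35%. Neither was set apart from weaker intronic summits, where the differences were -0.0893 and 0.0386 points. Positions along introns had 4.46% and 5.23%, so AGGTCA at intronic summits lay above promoters but below intron sequence at large. TAAACA was near 24.8%, 24.4% and 25.3%, against 20.9%, 20.8% and 21.4% of weaker summits and 20.2 ± 0.647% of intergenic summits. The first difference was -0.0638 points with equal G+C and 5.84 against weaker peaks with a summit of their own. TAATTA was near 15.2%, 15.2% and 18.0%, against 10.7%, 11.8% and 13.3% of weaker summits, and 0.469 points higher with equal G+C and 6.60 points higher than at weaker peaks with a summit of their own. GCCAT, the core of the Pho site, was near 25.9%, 25.8% and 22.8%, against 35.2%, 34.8% and 35.0% of weaker summits. It stayed 5.15 points lower with equal G+C. Promoter summits were only slightly higher than intronic ones, with 26.5%, 27.1% and 24.4%, and intergenic summits had 23.3%, 25.4% and 23.9%. Weaker summits were close to positions along introns, with 35.4%. The low share of GCCAT was therefore common to the strongest peaks of these locations and not particular to introns. With 23 words and 3 replicates no word could pass: 0 had an adjusted p under 0.05 (Benjamini-Hochberg) and 0 an unadjusted one. A match is a run of letters in the window and says nothing of which factor binds there.

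**Figure D5:**
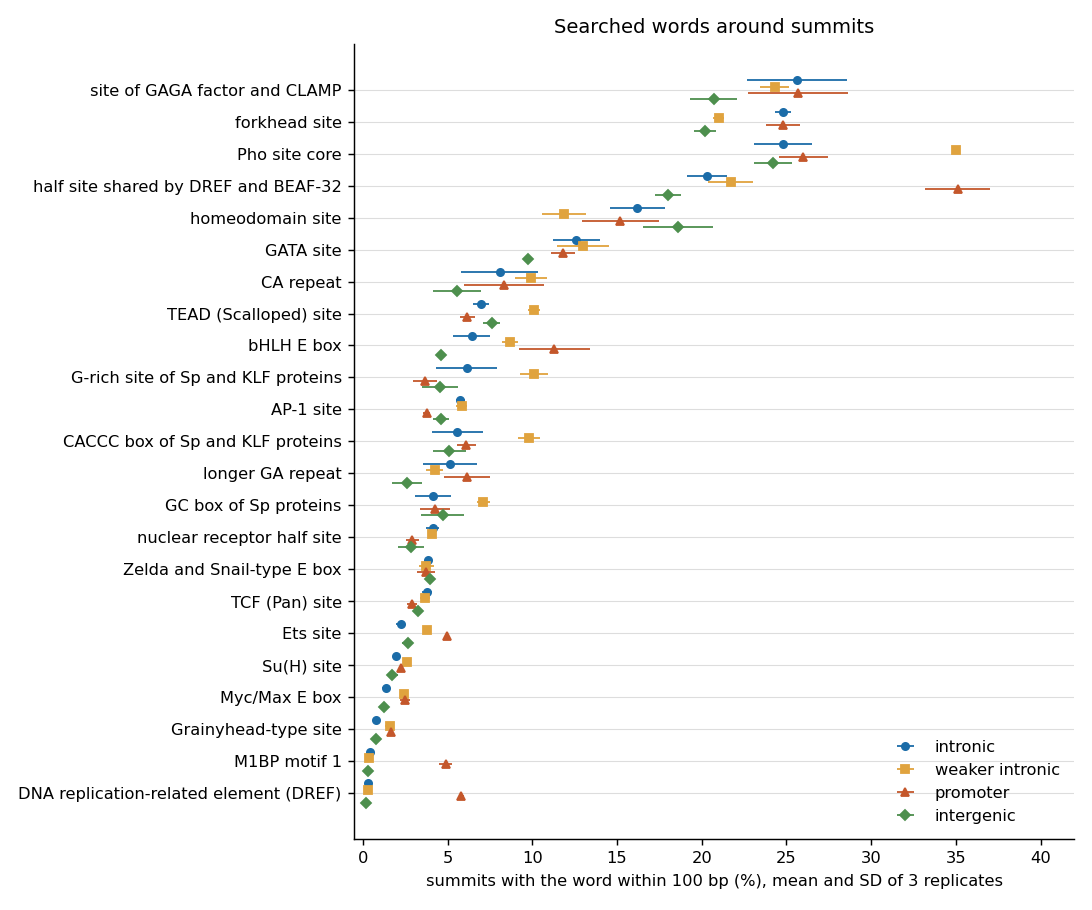
Share of summits with each of the 23 searched words within 100 bp, named by the factor known for it, for intronic, weaker intronic, promoter and intergenic summits (points, mean of 3 replicates; bars, SD). The sites of DREF and M1BP lie at 0.312% and 0.416% of intronic summits, against 5.81% and 4.88% of promoter summits. The Pho core lies at 24.8% of intronic summits, against 35.0% of weaker ones, with promoter and intergenic summits close to the intronic share.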

How the data were processed

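ChIP-seq peak lists of Sp1-GFP were analysed: 3 replicate lists, the list called on the pooled replicates and the optimal set. Per the labels' deposited text descriptions, each replicate list came from its own alignment and 1 control alignment, and the optimal set from the replicate and pooled lists by the irreproducible discovery rate. Per the labels, coordinates are those of assembly dm6. Which aligner and peak caller were run is not given in the sources used here.

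In these narrowPeak lists, the deposited signal of a peak is the authors' caller's own value with no stated scaling between lists, so it was compared only within a list. The deposited −log10 q value was not used. The deposited summit offset gave each position, as interval start plus offset. Read counts are in none of these lists, so depth is unknown and Wilson intervals cover counting only.

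Gene models were Ensembl release 115 (BDGP6.54), without transposable element records, on 2L, 2R, 3L, 3R, 4 and X, with 13945 protein-coding genes. Sequence was Release 6, whose coordinates are those of dm6. Locations were assigned in the order promoter (up to 500 bp from a protein-coding TSS), exon, intron and intergenic. Replicates were represented by their strongest peaks, as many as the optimal set holds, and matched to optimal peaks at summits within 100 bp. A word counted when either strand held it up to 100 bp from a summit. Weighted shares give weaker summits the G+C content of intronic ones, in bins of 5 percentage points. Differences were tested over replicates by an exact sign-flip permutation (two-sided), with Benjamini-Hochberg adjustment over 23 words. With 1 group there is no comparison of conditions.

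The genes named are those of the 20 strongest intronic peaks, the 10 genes with most of them, Sp1, and for each list the 3 genes with most summits and up to 2 eligible genes with none, first by symbol. Smr, CG14434, CG1146, pyd, hebe, Hr38 and Asator fall outside this rule and were named after their values were seen. The members, gene lists and words were chosen with earlier results of these data known. Of 399 symbols in explicit lists, 2 matched by an older name and 1 had no unique match. Alternatives changed the TSS distance, the peak set, exons, matching distance, word window, G+C weighting and neighbour distance, and left out each replicate. The class assignment, word search, matching and sign-flip test were tested on simulated data. The tools were Python 3.11.15 with pandas 2.3.3 and numpy 2.4.6, and matplotlib 3.10.9 for figures.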

Additional observations from a re-analysis of the deposited data

How the results depend on the processing

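No paired analysis was possible because a replicate block needs at least 2 groups of samples and there is 1, while the sign-flip tests compare classes of peaks within each replicate. Of 306 values computed under alternatives, 14 reversed and 17 moved, which for counts means over 1.5 times and for shares more than 1 SD of the replicates. The other 275 kept their direction or stayed within those margins, which for a difference sets no limit on its size. The cause of these changes was not tested. With TSS distances of 200, 1000 and 2000 bp the intronic share was 40.8%, 29.7% and 22.8%. At 2000 bp there were 1826 intronic peaks in 711 genes, and 47.9% had a neighbour within 2 kb. The strongest 50% of the optimal set, by construction a smaller set, gave 1387 peaks in 788 genes and 39.1% with a neighbour. That share was 50.8% with 1 line per interval, 33.6% within 1 kb and 77.8% within 5 kb. Intronic peaks found in all replicates numbered 2394 with all peaks of a replicate and 863 with its strongest 4000. Leaving out 1 replicate, 1673 to 1888 intronic peaks were found in both of the others.

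The log2 ratio of intronic to promoter signal was 0.0118 at 200 bp and between -0.0773 and 7.13e-05 with a replicate left out. With all peaks of each list it was -0.892, and that to intergenic signal 0.0950. GAGAG shares at intronic and promoter summits did not keep an order. The difference was -0.0878 points, and it was 0.975 at 200 bp, 0.270 at 2000 bp, 0.984 in the strongest 50% of the set, 4.35 in a window of 250 bp, 3.14 with equal G+C and between -0.388 and 0.152 with a replicate left out. Against weaker summits GAGAG was -0.727 points in a window of 50 bp and -0.0561 against those with a summit of their own, a comparison chosen after seeing the data. With equal G+C, differences from weaker summits turned for GGGCGG (0.0843), GGGNGGG (0.438) and TAAACA (-0.0638). The size of a word difference moved with the window, as for TATCGATA against promoters, with -2.47 points at 50 bp and -10.6 at 250 bp, and for TAATTA against weaker peaks, with 2.93 and 1.33 points. Counting transposable element records as exons, also added later, left 2833 intronic peaks.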
